A study of Mus musculus with 20 samples.

Results

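Of the 8084 transcripts measured by RNA-seq of polysome gradient fractions in E14 cells, a pluripotent mouse embryonic stem cell line, 219 (2.71%) were higher in both the heavy and the light fractions after Rpl10a siRNA, and they are described here. They were chosen from measured values. On log2(RPM + 1) averaged over 2 replicates, the change with Rpl10a siRNA was at least 0.7 in heavy fractions and at least 0.5 in light fractions, and the fraction changes differed by less than 0.8. In addition, the log2 ratio of footprints on RPL10A-containing ribosomes to those on all ribosomes lay within 0.6 of 0. The RPM values are reads scaled by library size and not by transcript length, so they are compared here within a transcript and not between transcripts. The mirrored rule for falling transcripts found 74.

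Wild-type cells received either Rpl10a siRNA, 1 siRNA duplex, or a universal negative control siRNA by lipid transfection, and cycloheximide at 100 µg/ml for 1 min before harvest. The heavy pool held mRNAs carrying at least 4 ribosomes, and the rest of the gradient made up the light pool (free RNA-protein particles, ribosomal subunits, single ribosomes and polysomes of 2 to 3), with 2 libraries for each siRNA and pool. Ribosome profiling (Ribo-Seq, which sequences the mRNA fragments that ribosomes protect from RNase) came from E14 lines that carried an epitope tag on 1 allele, 3xFLAG-Rpl10a, Rps25-3xFLAG or Rpl22-3xHA. Each line gave 2 libraries of all ribosomes (total) and 2 of ribosomes captured through the tag, by anti-FLAG beads or, for Rpl22, an anti-HA antibody. The genotype labels of these lines name no siRNA, although the protocol text given for the Rpl22 line also describes the transfection. The labels of that line's total libraries also name the antibody. Nothing in the labels ties replicates to different cultures, so p-values and SEs cover the spread between these libraries alone, which could be technical.

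RPL10A is a protein of the large ribosomal subunit, on the mobile stalk near the site where spent tRNAs leave the ribosome. An mRNA's place in a sucrose gradient reflects how many ribosomes it carries, so transcripts translated by many ribosomes collect in the heavy pool. A transcript that is higher in both pools has a larger share of the sequenced RNA in each of them, whereas a transcript that only moves along the gradient rises in one pool at the cost of the other. Values are scaled within each library, so a change is relative to the other transcripts of that pool, and fewer cells and less RNA per cell cannot be told apart in them.

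The deposited files carry UCSC transcript identifiers, and the reference tables at hand paired 0 of the 9498 identifiers with a gene name. The members are therefore described by their values, and gene groups, the cell line's marker genes, the members' promoters and the level of Rpl10a mRNA were not analysed here. Library sums of the RNA-seq files ran from 943664 to 1067209, the files hold no counts, and read depth is thus unknown. Every listed transcript reached at least 2 RPM in 1 or more of the 8 libraries. No member was at 0 in any RNA-seq library, and none was listed only through its Rpl10a siRNA libraries, as the lowest of the members' highest control values was 2.5 RPM.

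The condition on the light fractions did most of the selecting. A heavy-fraction change of at least 0.7 was met by 1292 of the 8084 transcripts (16.0%), whereas a light-fraction change of at least 0.5 was met by 537 (6.64%), and 291 met both. The limit on the difference between fractions left 271, and the limit on the RPL10A capture ratio left the 219 members. Just inside the heavy threshold the lowest member had a change of 0.701 and the nearest transcript outside had 0.692. For the light threshold these values were 0.502 and 0.499, for the difference between fractions 0.783 and 0.804, and for the capture ratio 0.598 and 0.615. Within 0.05 of the light threshold, 34 members lay inside and 54 transcripts that met every other condition lay outside, so the edge of the set is densest there.

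**Figure D1:**
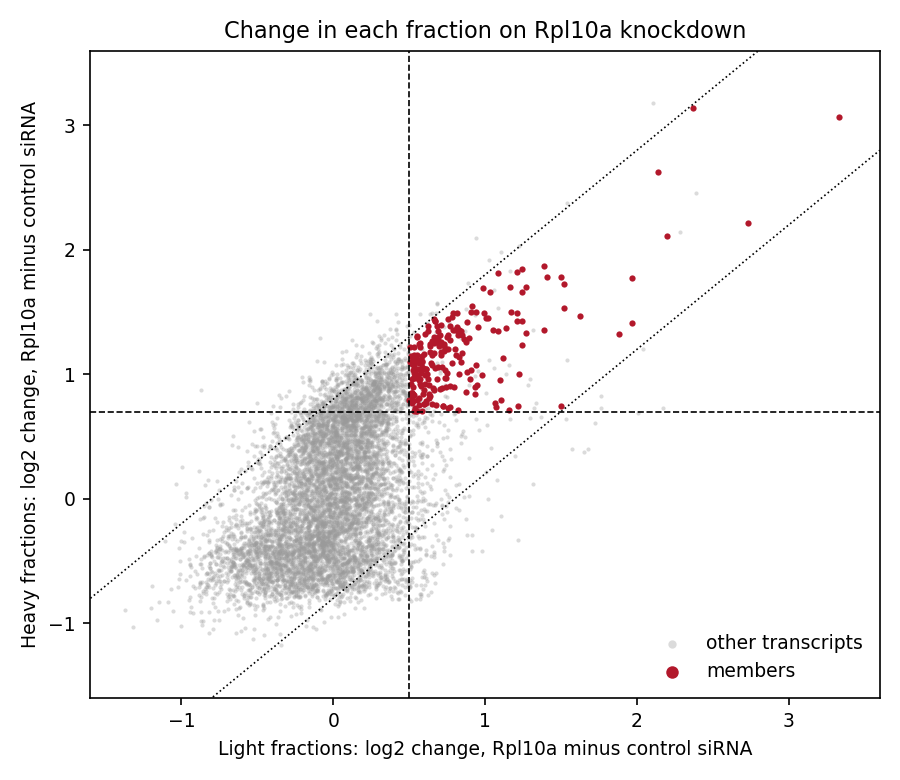
Log2 change with Rpl10a siRNA in light fractions (horizontal) and heavy fractions (vertical) for each of 8084 transcripts, with the 219 members in red, the thresholds of 0.7 and 0.5 dashed and the limit of 0.8 on the difference dotted. The members crowd at the light threshold, and 5 of them stand apart with both changes of at least 2.

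Library by library, the members' levels were higher in every Rpl10a siRNA library than in any control library when summarised by their median. With control siRNA the median member stood at 29.7 and 31.5 RPM in the light libraries and at 23.5 and 23.7 RPM in the heavy libraries. With Rpl10a siRNA it stood at 47.7 and 60.3 RPM in the light libraries and at 52.7 and 60.3 RPM in the heavy ones. This order follows from how members were chosen. The library medians over all transcripts ran only from 43.5 to 48.8 RPM. As a share of a library's summed values, the members took 1.18% and 1.23% of the control light libraries and 1.92% and 2.43% of the Rpl10a light libraries. In the heavy pool the share was 0.954% and 0.920% with control siRNA and 2.34% and 2.30% with Rpl10a siRNA.

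**Figure D2:**
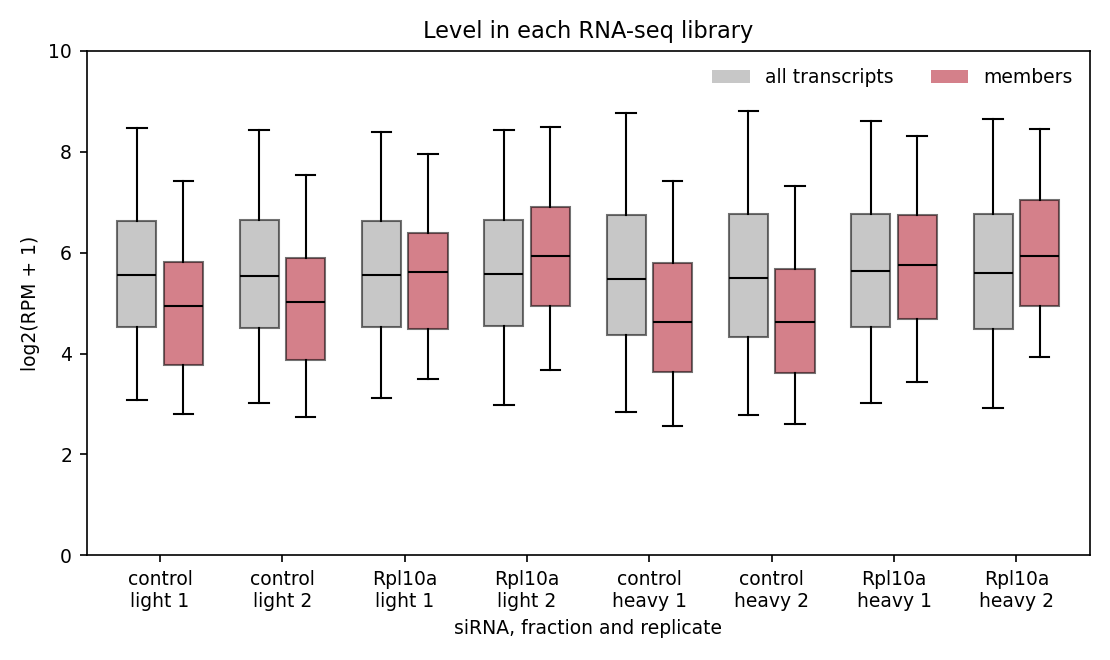
Log2(RPM + 1) in each of the 8 RNA-seq libraries for all 8084 transcripts (grey) and the 219 members (red), with boxes at the quartiles, a line at the median and whiskers at the 5th and 95th percentiles. Member medians rise from 23.5 to 31.5 RPM in the control libraries to 47.7 to 60.3 RPM in the Rpl10a siRNA libraries, while the grey boxes stay in place.

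Most members changed by moderate amounts, and more in heavy than in light fractions. The median log2 change was 1.14 in heavy fractions (quartiles 0.92 and 1.35, highest 3.14) and 0.70 in light fractions (quartiles 0.58 and 0.90, highest 3.33), beside medians of 0.01 and 0.02 over all transcripts. A change of at least 1 was reached by 148 members in heavy fractions and by 42 in light fractions. In both fractions it was reached by 35 members, out of 52 such transcripts in all. The heavy change exceeded the light change in 195 members, with a median difference of 0.42 against 0.09 over all transcripts. In 44 members the changes lay within 0.2 of each other. These values describe the choice of members and were not tested.

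At the far end, 5 members had changes of at least 2 in both fractions, out of 8 such transcripts in all. The next member in order of summed changes fell below 2 in each. The member with the largest sum of changes stood at 7.2 and 9.7 RPM in control light libraries and at 68.8 and 126.5 RPM in Rpl10a light libraries. In heavy libraries it went from 5.1 and 7.4 RPM to 41.9 and 83.2 RPM, so its groups were far from overlapping in either pool. Its log2 changes were 3.07 in heavy and 3.33 in light fractions (limma SE 0.37). The members ranked 3 and 4 by this sum had control values between 2.9 and 9.2 RPM, and their Rpl10a siRNA values differed widely between replicates. In heavy libraries the former stood at 16.9 and 60.8 RPM and the latter at 16.9 and 60.3 RPM, so the size of their changes is poorly fixed (SE 0.61 and 0.63).

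Among the 92 members that had a mean RPM at or above the median of all transcripts and no overlap between siRNA groups in either pool, uc007naj.2 had the largest sum of changes. Its light-fraction values were 12.1 and 12 RPM with control siRNA and 51.0 and 86.1 RPM with Rpl10a siRNA. Its heavy-fraction values were 14.3 and 13.8 RPM with control siRNA and 113.1 and 153.7 RPM with Rpl10a siRNA. The control libraries were nearly identical and every knockdown library was several-fold above them, with mean ratios of 5.69 in light and 9.49 in heavy fractions. The log2 changes were 2.37 and 3.14 (SE 0.24 each), and their difference of 0.78 lies close to the limit of 0.8.

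uc008rza.1 followed, at a higher level. Its light-fraction values were 50.6 and 70.8 RPM with control siRNA and 181.7 and 309.3 RPM with Rpl10a siRNA. Its heavy-fraction values were 68.2 and 97.9 RPM with control siRNA and 202.8 and 392.1 RPM with Rpl10a siRNA. The groups did not overlap, but replicate 2 was the higher library in each of the 4 groups. The mean ratios were 4.04 in light and 3.58 in heavy fractions, and the log2 changes 1.97 and 1.77 (SE 0.36 each), so the pools changed by similar amounts. Footprints of uc008rza.1 in the tagged lines stood at 66.8 and 81.5 RPKM in the Rpl10a line's total libraries, 52.7 and 48.3 in the Rps25 line's and 52.5 and 53.8 in the Rpl22 line's. Those of uc007naj.2 were lower, at 17.0 and 21.2, 14.6 and 14.2, and 11.7 and 11.8 RPKM (reads scaled by library size and transcript length).

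At the weak end of the set, the member with the smallest sum of changes went from 10.5 and 11.5 to 16.1 and 16.6 RPM in light libraries and from 9.3 and 10.9 to 16.6 and 17.5 RPM in heavy libraries. Its groups did not overlap although its changes were only 0.53 and 0.70. The member with the highest mean RPM went from 1002 and 762.3 to 1470 and 1392 RPM in light libraries and from 451.6 and 413.4 to 1079 and 999.9 RPM in heavy libraries. The member with the lowest mean RPM held between 0.6 and 2.5 RPM in control libraries and between 2.6 and 4.8 RPM in knockdown libraries, where the pseudocount of 1 makes its changes an understatement.

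Read against replicate spread, more members passed the test in heavy than in light fractions, while similar numbers had groups that did not overlap. In a limma fit of all 8 libraries over all transcripts, 207 of the 219 members passed an adjusted p below 0.05 as higher in heavy fractions, beside 26.8% of all transcripts. In light fractions 79 members passed, beside 2.51% of all transcripts. The same 79 passed in both fractions, beside 1.4% of all. Libraries of the siRNA groups did not overlap for 215 members in heavy fractions, beside 38.1% of all transcripts, and for 209 in light fractions, beside 32.5%, and for 208 in both, beside 19.3%. The rule used these contrasts, with a higher threshold in heavy fractions, so the counts describe the set and nothing is read from them. The contrast between pools also depends on the fit. With a replicate block, limma called 219 members higher in heavy and 215 in light fractions, beside 2753 and 910 of all 8084 transcripts. The count of 79 was not stable when single libraries were left out, and neither were the light-fraction calls over all transcripts. Such a fit leaves a single library in a group, so nothing is read from its counts.

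Scaling moved the centre of these changes. It shifts all log values of a library by nearly the same amount, so the members' distance from the centre hardly changes by construction. With library totals the median heavy change of all transcripts was 0.12 and with library medians aligned it was −0.12, against 0.01 as deposited, and in each case the median member lay 1.12 above it. In light fractions the distance was 0.69 under each scaling. Over all transcripts, limma called 2164 higher and 1836 lower in heavy fractions as deposited, 2454 and 1243 with library totals, and 1687 and 2473 with medians aligned. In light fractions the calls were 203 higher and 292 lower as deposited, 356 and 241 with totals, and 159 and 296 with medians aligned.

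The replicates of the knockdown did not carry the members equally, and in the light fractions nearly all members differed in the same direction. In the Rpl10a siRNA light pool, replicate 2 exceeded replicate 1 for 204 of the 219 members (93.2%), by a median of 0.37 on the log2 scale, beside 52.7% and 0.02 over all transcripts. In the control light pool the member count was 138 (63.0%, median 0.09, beside 49.1% over all). In heavy fractions replicate 2 was higher for 128 members with Rpl10a siRNA (58.4%, median 0.13, beside 50.7% over all) and for 99 with control siRNA (45.2%, median −0.02, beside 48.7%). Regardless of direction, the members' median absolute difference between replicates was 0.37 in each Rpl10a siRNA pool, beside 0.14 over all transcripts in the light and 0.24 in the heavy pool. With control siRNA it was 0.18 in the light and 0.17 in the heavy pool, beside 0.13 and 0.16. The knockdown libraries of both pools thus differed by similar amounts for the members, with a common direction in the light pool. Replicate 2 was higher in both Rpl10a siRNA pools for 126 members (57.5%), beside 34.3% of all transcripts. As nearly all members were higher in the light pool, this share is close to their 58.4% in the heavy pool alone. Agreement between the pools that is particular to the members is not read from it. Same-numbered deviations also correlated between the siRNAs, with r = 0.622 in heavy and 0.615 in light fractions. The labels give the replicate numbers no meaning, and the source of what same-numbered libraries share was not tested.

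**Figure D3:**
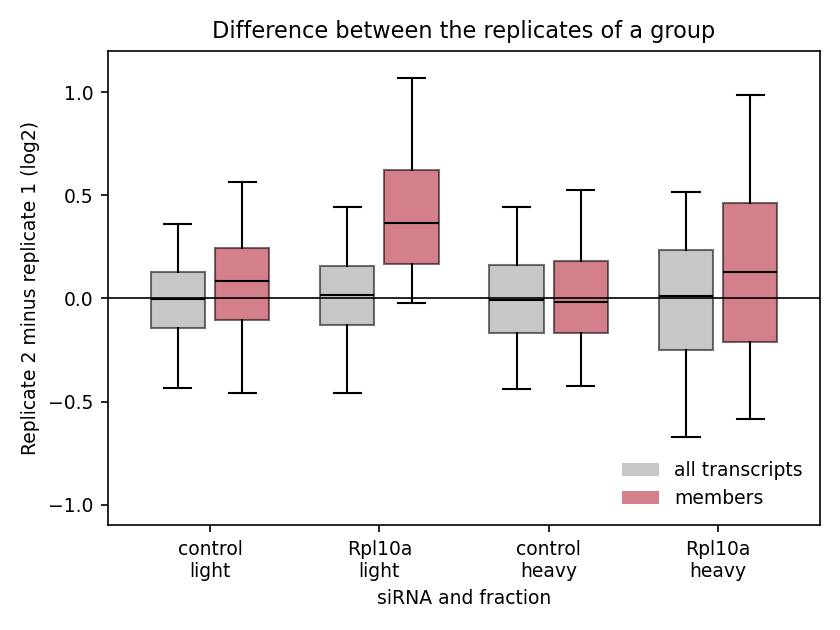
Replicate 2 minus replicate 1 on the log2(RPM + 1) scale in each group of RNA-seq libraries, for all 8084 transcripts (grey) and the 219 members (red), with boxes at the quartiles, a line at the median and whiskers at the 5th and 95th percentiles. The red box of the Rpl10a siRNA light pool lies above 0, with a median of 0.37, while all 4 grey boxes straddle 0.

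Taken alone against the mean of both control light libraries, the first Rpl10a light library gave a median member change of 0.56, and 135 members reached 0.5. The second gave 0.88, and 215 members reached 0.5. In heavy fractions the single-library medians were 1.12 and 1.16, and 183 and 210 members reached 0.7. Every member was above 0 in each single comparison of this kind except 1 member in the first light library. Applied without the second Rpl10a light library the rule found 139 transcripts, of which 120 were members, and without the first it found 327, of which 209 were members. The median of replicate 2 minus replicate 1 rose with the size of the members' changes in light fractions, but not steadily in heavy fractions. In the third of members with the largest summed changes, replicate 2 was higher in 71 of 73 in light and 52 of 73 in heavy fractions, with median differences of 0.55 and 0.40. In the third with the smallest it was higher in 68 and 45, with medians of 0.24 and 0.07. Whether the libraries differ in the extent of the knockdown was not tested.

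With control siRNA the members leaned to the light side of the gradient. Their median heavy-minus-light difference was −0.16 (quartiles −0.63 and 0.16), beside −0.04 over all transcripts, and 85 (38.8%) lay on the heavy side, beside 47.9%. Under library totals the members' median was −0.21 and under aligned medians −0.10, in each case 0.12 below that of all transcripts. Scaling leaves this distance nearly unchanged by construction. Limma called 17 members heavier and 55 lighter, beside 28.0% and 26.4% of all transcripts. A difference above 1 was seen in 1 member (0.457%), beside 10.6% of all transcripts, and one below −1 in 25 (11.4%), beside 10.1%. These values share the control libraries with the rule and are descriptions.

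With Rpl10a siRNA the members' median heavy-minus-light difference was 0.23, beside 0.16 over all transcripts, and 142 (64.8%) lay on the heavy side, beside 59.4%. Between the siRNAs 156 members kept their side, 60 went from the light to the heavy side and 3 went the other way, within the limit of 0.8 that the rule sets on such movement. The 134 members on the control light side had median changes of 1.17 in heavy and 0.69 in light fractions, and the 85 on the heavy side had 1.05 and 0.72. The light change was thus alike on both sides of the gradient.

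Footprint densities, which the rule did not use as levels, placed the members somewhat below the typical transcript in the tagged lines, with a wide range. These densities were not divided by mRNA level, so they do not give ribosomes per mRNA. In the Rpl10a line's total libraries the median member had 17.9 RPKM (17.0 and 19.2 in single libraries, range 3.7 to 1036), beside 25 RPKM over all 8084 transcripts. In the Rps25 line it had 19.7 RPKM over 206 members, beside 26, and in the Rpl22 line 21.8 RPKM over 190, beside 27.4. The files of those lines listed 94.1% and 86.8% of the members, against 95.3% and 92.6% of all RNA-seq transcripts, and the other 13 and 29 members have no value there.

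When all transcripts were split into 5 equal bins by footprint density in the Rpl10a line, 65 members (29.7%) fell in the lowest bin and 30 (13.7%) in the highest, with 43, 38 and 43 between. The Rps25 and Rpl22 lines likewise had 55 and 57 members in the lowest bin and 30 and 23 in the highest. Across the bins of the Rpl10a line, from lowest to highest, the members' median heavy change was 1.18, 1.11, 1.12, 1.09 and 1.13 and their median light change 0.75, 0.66, 0.66, 0.66 and 0.67. Over all transcripts the median heavy change went from 0.10 in the lowest bin to −0.26 in the highest, and the median light change from −0.02 to 0.06. The rule set the same thresholds on these changes in every bin. The members' distance from transcripts of like density thus mirrors the drift of all transcripts, and nothing is read from it. Of the 35 members with both changes of at least 1, 17 were in the lowest bin and 1 in the highest. The rule used these changes, and other transcripts with changes of that size were not counted by bin. This split is therefore only a description.

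**Figure D4:**
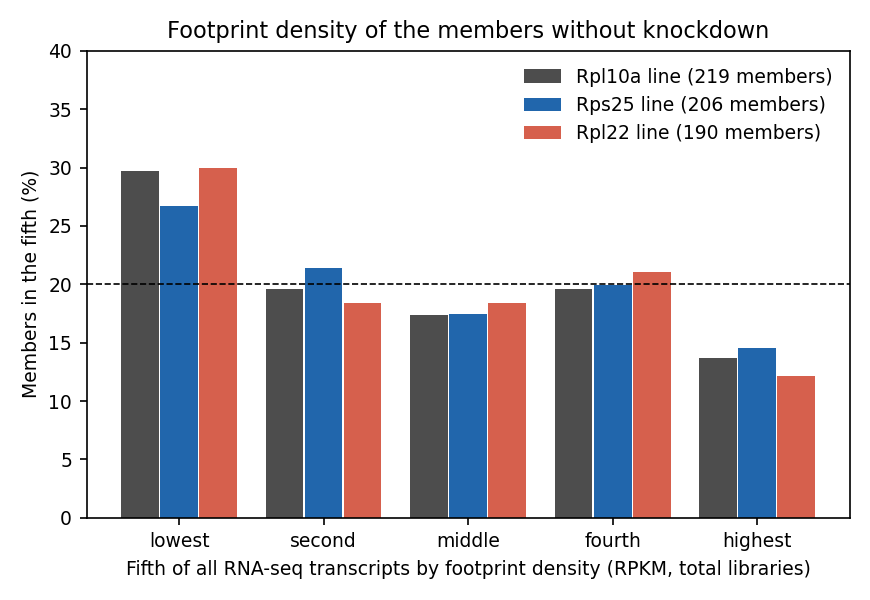
Percentage of the members in each of 5 equal bins of all RNA-seq transcripts, ordered by mean RPKM in the total Ribo-Seq libraries of each tagged line, with the dashed line at an equal share of 20%. In the Rpl10a line 29.7% of members are in the lowest bin and 13.7% in the highest.

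The captures of RPS25, a protein of the small subunit, and RPL22, a further protein of the large subunit, come from libraries that the rule did not use and ask whether the members are unevenly spread over ribosomes that contain these proteins. No member passed in either (limma, adjusted p below 0.05): 0 of 206 in the RPS25 capture, where 0.0342% of all transcripts were called higher and 0.0114% lower, and 0 of 190 in the RPL22 capture, where 0% were called in each direction. The smallest adjusted p of a member was 0.0932 for RPS25 and 0.116 for RPL22 (limma). At an unadjusted p below 0.05, 38 members were higher and 7 lower in the RPS25 capture, or 18.4% and 3.40%, beside 11.1% and 9.75% of all transcripts. In the RPL22 capture 7 were higher and 34 lower, or 3.68% and 17.9%, beside 8.87% and 11.3%. Capture and total libraries did not overlap for 82 members higher and 30 lower for RPS25, beside 27.9% and 25.9% of all transcripts, and for 21 higher and 84 lower for RPL22, beside 21.5% and 31.4%.

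By sign, the members leaned toward the RPS25 capture and away from the RPL22 capture by small amounts. Their median log2 ratio to total ribosomes was 0.11 for RPS25, with 139 of 206 above 0 (67.5%), beside a median of 0.01 and 51.5% over all transcripts of that table. For RPL22 it was −0.10, with 67 of 190 above 0 (35.3%), beside −0.03 and 44.1%. By single capture library the RPS25 medians were 0.17 and 0.10 and the RPL22 medians −0.12 and −0.09, so both libraries of each capture had the same sign. Relative to all transcripts the members' medians lay 0.10 higher for RPS25 and 0.06 lower for RPL22 as deposited, with library totals and with medians aligned. Scaling leaves these distances nearly unchanged by construction, so their agreement is no separate support. The members' median for RPS25 was 0.17 without the second RPS25 capture library and 0.16 when the rule was applied without the second Rpl10a light library. That for RPL22 was −0.06 when the rule was applied without the first Rpl10a heavy library.

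**Figure D5:**
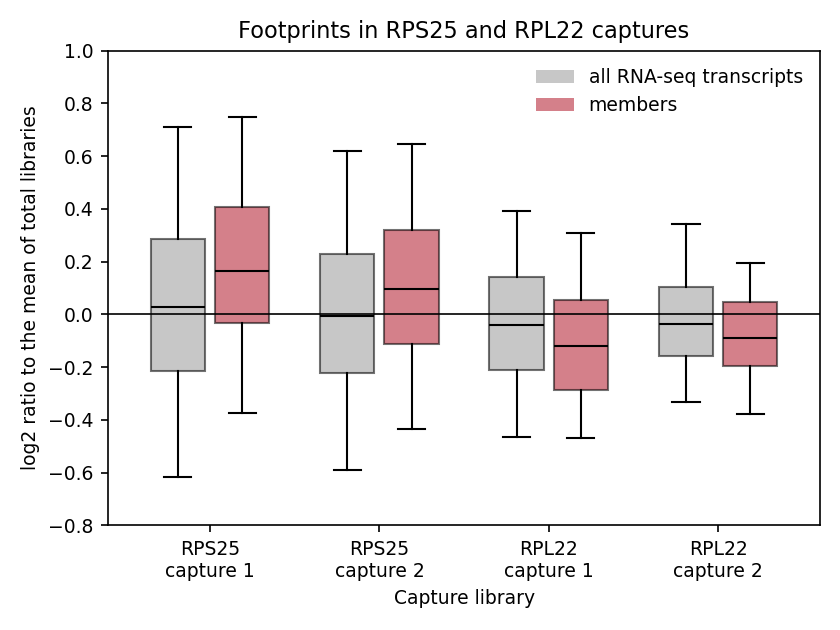
Log2 ratio of each capture library to the mean of its line's total libraries, for RNA-seq transcripts measured in that line (grey) and the members among them (red), with boxes at the quartiles, a line at the median and whiskers at the 5th and 95th percentiles. Member medians are 0.17 and 0.10 in the RPS25 captures and −0.12 and −0.09 in the RPL22 captures.

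Of the 185 members measured in both lines, 82 had a ratio above 0 for RPS25 and below 0 for RPL22 (44.3%), beside 28.7% of the 7263 RNA-seq transcripts measured in both, and 23 had the reverse (12.4%, beside 21.4%). Across these members the ratios had a Pearson r of −0.04, and across all 7263 transcripts −0.06, so members with a higher RPS25 ratio were not those with a lower RPL22 ratio. Across the 206 members in the RPS25 table the RPS25 and RPL10A ratios had r = 0.46, beside 0.53 over the 7704 transcripts. The rule truncates the RPL10A ratio, and both captures used the same beads, so the RPS25 ratio is not fully independent of the choice of members. Transcripts are not replicates, and these correlations are descriptions.

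The extremes of the RPS25 capture were both among the members that changed most on knockdown, and their levels were low. The member with the largest sum of changes had 9.3 and 9.4 RPKM in total and 28.9 and 22.9 in capture libraries (log2 ratio 1.37, SE 0.18, limma adjusted p = 0.0932). The member ranked 3 by that sum had 12.6 and 11.1 RPKM in total and 3.3 and 3.7 in capture libraries (log2 ratio −1.51, SE 0.22, limma adjusted p = 0.0932). Their groups did not overlap. They were picked as the highest and lowest ratio, so the opposite directions follow from that choice, and nothing is read from them about the leading members. uc007naj.2 had 14.6 and 14.2 RPKM in total and 13.3 and 14.0 in RPS25 capture libraries (log2 ratio −0.07, SE 0.17, limma adjusted p = 0.833). This difference was smaller than its SE, although the groups did not overlap. In the RPL22 capture it had 8.9 and 10.3 RPKM against 11.7 and 11.8 in total libraries (log2 ratio −0.27, SE 0.13, limma adjusted p = 0.296). uc008rza.1 had log2 ratios of 0.00 for RPS25 (SE 0.28, limma adjusted p = 0.994) and −0.09 for RPL22 (SE 0.11, limma adjusted p = 0.668).

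RPL22 ratios of the members ran from −0.54 to 0.50. The lowest belonged to a member with 10.9 and 9.8 RPKM in total and 6.8 in each capture library (SE 0.14, limma adjusted p = 0.126). The highest belonged to one with 3.7 RPKM in each total and 6.7 and 4.7 in capture libraries (SE 0.20, limma adjusted p = 0.208). For RPS25, ratios above 0.5 were held by 23 members (11.2%) and ratios below −0.5 by 4 (1.94%), beside 7.39% and 4.97% of the RNA-seq transcripts measured. For RPL22, 0 members were above 0.5 and 1 (0.526%) was below −0.5, beside 1.05% and 0.855%, so such ratios were rare in both sets.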

How the data were processed

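The authors deposited 1 table per library with UCSC transcript identifiers: RPKM for 12 Ribo-Seq libraries and values headed RPM for 8 RNA-seq libraries, per the file headers. As the RPM columns summed to between 943664 and 1067209, the deposited values were treated as a scaled signal, possibly with a further factor per library. Reads were processed with cutadapt and Bowtie2, and those of the Rpl22 line and of RNA-seq also with STAR, on mm10, per the submitters' processing notes; the counting tool was not given in the sources used here. No pair of replicates held the same value for more than 1.53% of transcripts. Groups follow the sample titles.

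Values were analysed as log2(value + 1), so fold changes of low transcripts are understated. Contrasts were fitted with limma 3.58.1 in R 4.3.3 (moderated variances with a trend, two-sided, Benjamini-Hochberg adjustment over all transcripts of a table, threshold 0.05), with group as the only term: the 8 RNA-seq libraries in 1 fit and each line's 4 Ribo-Seq libraries in another. The fits were tested on simulated data. The members, the naming rule and the alternatives were chosen with earlier results of these data known. Named transcripts are the first 2 by summed change among members at or above the median RPM whose siRNA groups did not overlap in either pool; with no gene names only 2 are named. Alternatives were the pseudocount, a filter on low values, scaling, the variance trend, a replicate block, a fit of only the libraries compared, other thresholds and leaving out each library.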

Additional observations from a re-analysis of the deposited data

Results flagged for a closer look

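The members' median capture ratio had opposite signs in the RPS25 and RPL22 lines. It was above 0 in both RPS25 capture libraries (0.17 and 0.10) and below 0 in both RPL22 capture libraries (−0.12 and −0.09), and the medians over both libraries differed by 0.204 on the log2 scale. The difference was not tested. Over the RNA-seq transcripts measured in each line the medians were 0.01 and −0.04, and tag, antibody and lysis buffer changed together between these lines, so line and procedure cannot be told apart.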

How the results depend on the processing

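The number of members stayed within 1.5 times of 219 under both other pseudocounts (224 and 180), the filter (217), library totals (293), aligned medians (185) and without either of the last 2 conditions (271 and 239), and was 61 with thresholds of 1 and 0.8. Without single libraries it ran from 139 to 327. In an alternative chosen after seeing the data, it was 348 without the first Rpl10a siRNA library of each pool (208 of them members) and 121 without the second (95 of them members). Without a variance trend limma called 260 transcripts in light fractions, 48 of the members there, 38 in the RPL10A capture and 0 in the RPS25 capture, against 495, 79, 124 and 4. A fit of only the 4 light libraries called 749. With a replicate block limma called 219 members higher in heavy fractions, beside 2753 of all transcripts. In light fractions it called 1912 transcripts, 910 of them higher, and 215 members higher, so that members passed almost equally often in both pools. It called 202 transcripts in the RPL10A capture. In the RPL22 capture it called 692 of 8588 transcripts (392 higher, 300 lower) and 14 of 190 members (1 higher, 13 lower). Members were thus called there about as often as all transcripts. Same-numbered deviations correlated with r = 0.622 in heavy and 0.615 in light fractions between siRNAs, with 0.526 (control) and 0.621 (Rpl10a) between pools, and with −0.0036, 0.0077 and 0.176 between capture and total of the RPL10A, RPS25 and RPL22 lines, but the labels give the numbers no meaning, so the numbers were not taken to pair samples. The members' median RPL22 ratio of −0.10 became −0.069 with a pseudocount of 5, −0.20 with library totals and −0.061 with aligned medians, each with members chosen again under that setting, and −0.12 for members at or above the median RPM. The median of all transcripts moved from −0.03 to −0.12 with totals. Without single libraries the calls ranged from 1500 to 4258 in heavy fractions (1500 when control heavy replicate 2 was left out, 2561 when Rpl10a heavy replicate 1 was), from 0 to 987 in light fractions, from 3306 to 4808 for heavy against light with control siRNA, from 0 to 0 in the RPL10A, from 0 to 1 in the RPS25 and from 0 to 1 in the RPL22 capture. Members called ranged from 159 to 209 in heavy fractions, from 0 to 137 in light fractions and from 0 to 0 in each capture. Their median ratio ranged from 0.080 to 0.17 for RPS25 and from −0.12 to −0.063 for RPL22. The cause of these differences was not tested, beyond the fewer samples of a fit without a library. Depth is unknown, so its limit on low transcripts could not be given.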
